A study of Mus musculus with 10 samples.

Results

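The genes described are the kinesin motors and light chains, taken from the table of normalized counts as every row whose symbol begins with Kif or Klc and a digit, together with Kifc1, Kifc2, Kifc3, Kifc5b and Kifap3. The rule took 48 of the 15507 genes listed, and it used names only and no measured value. Of these, 45 encode a kinesin heavy chain, light chain or associated subunit. The other 3 do not: Kif1bp encodes a protein that binds kinesins, Kif16bos is a long non-coding RNA transcribed opposite to Kif16b, and Kif4-ps is a pseudogene. All 48 passed the filter on low counts and were tested.

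Kinesins are motor proteins that hydrolyse ATP to walk along microtubules, mostly towards the plus end. Kinesin-1 pairs heavy chains (Kif5a, Kif5b, Kif5c) with light chains (Klc genes) that hold cargo, and heterotrimeric kinesin-2 (Kif3a with Kif3b or Kif3c, and Kifap3) drives transport into cilia and flagella. Kinesin-13 members do not walk but take tubulin off microtubule ends, and the kinesins of mitosis and meiosis build the spindle and its midzone. In spermatids, microtubule transport serves the manchette, which shapes the nucleus, and the growing tail. KIF17 is known there for carrying ACT, the product of Fhl5 and a coactivator of the transcription factor CREM, out of the nucleus.

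RNA was sequenced from germ cells (spermatogonia, spermatocytes and spermatids together) that had been dispersed enzymatically from testes of 5 wild type (WT) and 5 homozygous GRTH knock-in (KI) mice aged 45 days, as 1 library per mouse. KI mice carry the human gene of the RNA helicase GRTH with an Arg-to-His missense mutation, and their germ cells lack the phosphorylated form of GRTH. The gene targeted by the knock-in is Ddx25, its mouse counterpart. WT mice carry no altered allele by their labels, and no group was treated. In the study's alignment summary, libraries 1 to 3 of both genotypes had a lower mean read quality than libraries 4 and 5, so results that differ between these sets are given for each set.

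Recovered reads on genes numbered 13323024 to 16422347 per WT library and 12722086 to 15500582 per KI library. The targeted gene Ddx25 was at 8231 ± 2209 normalized counts in WT and at 101 ± 91.7 in KI (SD, n = 5). In KI libraries 1 to 3 it stood at 146.0, 193.8 and 160.6, and in KI libraries 4 and 5 at 2.88 and 1.84. The germ cell types named by the study were present by their markers, and none of the tested markers was at 0 in any library. The listed markers Nanos3 and Cnn1 were not among the genes tested. All 10 markers of elongating spermatids, which include protamines and transition proteins, were down-regulated in KI, and their summed signal was 263360 to 466740 in WT and 41130 to 81208 in KI. The 6 markers of round spermatids were all lower in KI (median log2 fold change −0.36), and although none was called, Catsper3 and Spaca1 passed the adjusted p (7.61e-04 and 0.00604 by limma) and 3 did not overlap between genotypes. None of 10 markers for spermatocytes and 1 of 9 for spermatogonia (Lin28a, up) was called. Below the fold threshold, 1 marker of each list passed the adjusted p by limma and was lower in KI. These were Spo11 for spermatocytes (−0.41, adjusted p = 0.0232) and Gfra1 for spermatogonia (−0.48, adjusted p = 0.0202). Of the somatic markers, 3 of 6 for Leydig cells were up-regulated (5 of 6 with the replicate number as a block, which added Hsd3b1 and Lhcgr). Also up-regulated were 4 of 7 for macrophages and 1 of 4 for endothelial cells (Cdh5). For peritubular cells 2 of 5 were up-regulated (Acta2 and Des), and for Sertoli cells none of 6 was. Actg2, listed as a peritubular marker, was down-regulated at −1.37. Its WT mean was 3325 normalized counts, while the other peritubular markers tested had WT means from 11.9 (Des) to 54.4 (Tagln). The cells that Actg2 came from were not tested. Over all genes tested, 6.13% were up-regulated and 8.22% down-regulated. In these mixed cells, fewer cells of a type and less RNA per cell cannot be told apart.

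KI and WT were compared to see which kinesin transcripts differed by genotype, using limma on log2(normalized count + 1) with Benjamini-Hochberg adjustment over the 15389 genes tested. Calls required a fold change of at least 1.5 and an adjusted p under 0.05, and log2 fold changes are given as KI against WT. Of the 48 rows, 6 were down-regulated in KI (Kif17, Kifap3, Kif2c, Kif1a, Kif26b and Kif16bos) and 1 was up-regulated (Kif13a). The down-regulated rows were 12.5% of the 48, beside 8.22% of all genes tested, and the up-regulated row was 2.08%, beside 6.13% of all genes. At the adjusted p alone, 9 of the 48 passed (18.75%, beside 22.9% of all genes), the further 2 being Kif1c and Kif23, both higher in KI. In 9 rows the values of KI and WT did not overlap (18.75%, beside 17.7% of all genes), 7 of them below WT and 2 above. The median log2 fold change of the 48 rows was 0.02, beside 0.03 for all genes tested, and 23 rows were lower and 25 higher in KI. By these counts the kinesins as a group stood close to the background, and the differences lay in single members of kinesin-2, kinesin-3, kinesin-11 and kinesin-13.

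**Figure D1:**
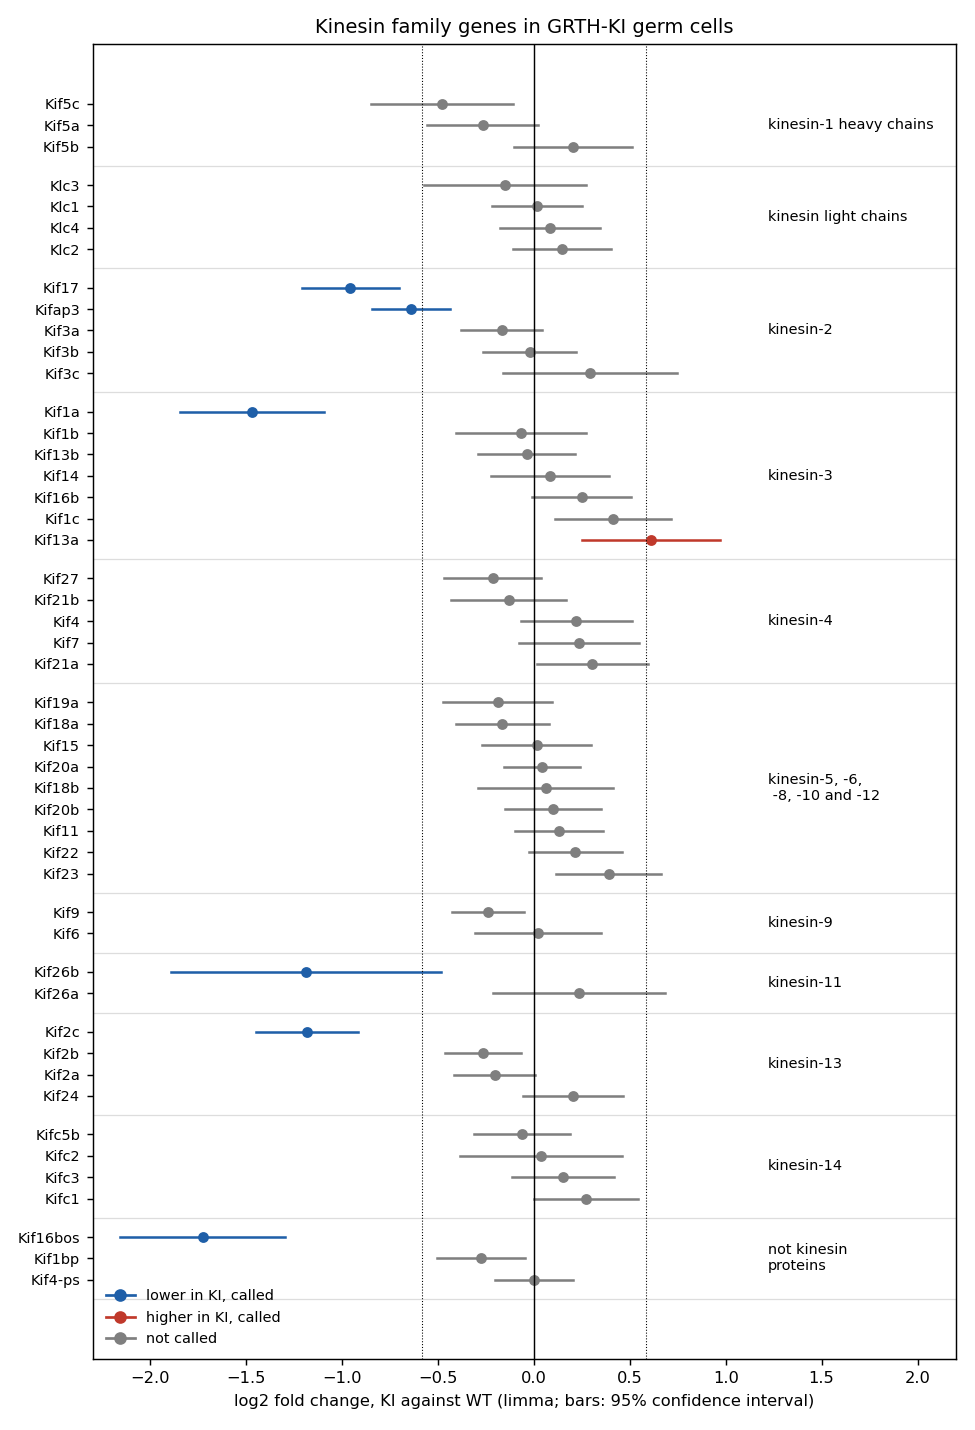
Log2 fold change of each of the 48 kinesin rows, KI against WT, by family, with the 95% confidence interval of limma as bars and dotted lines at 1.5-fold. The 6 rows in blue lie left of the lower line, Kif13a lies right of the upper line in red, and the families of the spindle motors centre near 0.

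Among the kinesin-2 genes, the motor Kif17 and the adaptor subunit Kifap3 were down-regulated, while the partner motors Kif3a and Kif3b were not called. Kif17 lies on chromosome 4 of mm10 at 138262251 to 138301974 (plus strand). Its normalized counts in WT libraries 1 to 5 were 6817, 8011, 8113, 6597 and 7570, and in KI libraries 1 to 5 they were 3200, 3579, 3368, 4763 and 4360. Every KI library lay below every WT library, and KI libraries 4 and 5 were the highest of the KI group. The mean was 1.93-fold lower in KI (log2 fold change −0.96, SE 0.12, adjusted p = 3.23e-05 by limma). Kif17 shares 74 bases of exon with Sh2d5 on the same strand, so a small part of its reads could belong to that gene.

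The promoter of Kif17 holds a full cAMP response element (CRE, TGACGTCA, its own reverse complement), the sequence that CREM binds. The stretch around it is shown because Kif17 is the most abundant down-regulated motor and because its cargo is a coactivator of CREM. It lies at chr4:138262139-138262198 of GRCm38.p6 (plus strand, RefSeq), the element begins 86 bases before the start of the gene, and capitals mark the element. The stretches of Kif5c (chr2:49619234-49619285, plus strand, 26 bases before the start) and Klc1 (chr12:111758809-111758867, plus strand, 33 bases before the start) are shown beside it because they hold the same element. The 50 bases after the start were found unbroken in an annotated transcript for Kif17 and Klc1 but not for Kif5c, whose start is less certain.
Kif17: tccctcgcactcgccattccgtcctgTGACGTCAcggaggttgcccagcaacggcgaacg
Kif5c: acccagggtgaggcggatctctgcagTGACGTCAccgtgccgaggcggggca
Klc1: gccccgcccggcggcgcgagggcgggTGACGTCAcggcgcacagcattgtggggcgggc
The element was found in 4 of the 41 promoter windows of 37 kinesin rows (250 bases before to 50 after the start), the other being that of Kif18a, where it lies after the start. It occurred in 588 of all 32851 windows (1.79%). Of the 4 genes only Kif17 was called, with log2 fold changes of −0.48 for Kif5c, 0.02 for Klc1 and −0.16 for Kif18a. Of the 415 tested genes with the element in a window, 39 were down-regulated (9.40%), beside 8.23% of all 12139 tested genes with a window. A second motif searched, CHR (TTTGAA), was in 14 of the 41 kinesin windows, beside 17.9% of all windows.

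Kifap3, which links the KIF3 motors to their cargo, lies on chromosome 1 at 163779583 to 163917108 (plus strand). Its normalized counts were 5347, 5476, 5015, 4196 and 4304 in WT libraries 1 to 5 and 3070, 3197, 2985, 3340 and 2935 in KI libraries 1 to 5. The genotypes did not overlap, and the 3 highest values were those of WT libraries 1 to 3. The mean was 1.57-fold lower in KI (log2 fold change −0.64, SE 0.10, adjusted p = 1.87e-04 by limma). The fold change was −0.41 after scaling to library totals and −0.55 after scaling to the upper quartile, under the 1.5-fold threshold in both, and in libraries 4 and 5 alone it was −0.44 (adjusted p = 0.0639). The motor Kif3a, at 1633 ± 179 in WT and 1452 ± 150 in KI (SD, n = 5), had a log2 fold change of −0.17 (95% confidence interval −0.38 to 0.04). Its partner Kif3b, at 5728 ± 478 in WT and 5689 ± 942 in KI (SD, n = 5), had −0.02 (−0.26 to 0.22), and the low-count Kif3c had 0.29 (−0.16 to 0.75).

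**Figure D2:**
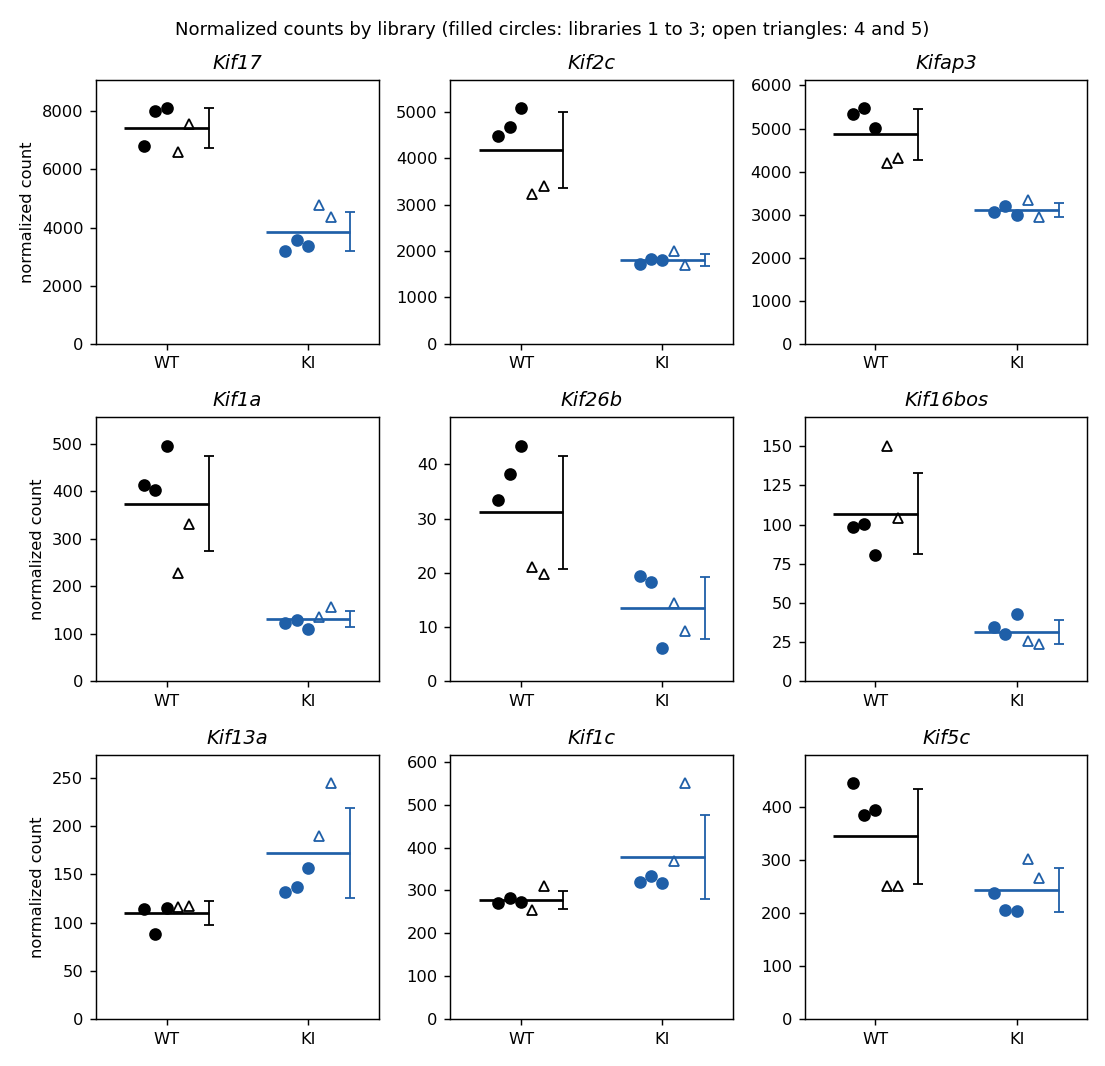
Normalized counts of 9 kinesin rows in each library, with filled circles for libraries 1 to 3, open triangles for libraries 4 and 5, a line at the mean and bars of 1 SD (n = 5). For Kif17 and Kif2c all KI points lie below all WT points, for Kif13a and Kif1c all KI points lie above, and for Kif5c the circles are lower in KI while the triangles are higher.

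Among the kinesin-13 genes, Kif2c (MCAK), which depolymerizes microtubules at kinetochores and centromeres, was down-regulated. It lies on chromosome 4 at 117159633 to 117182625 (minus strand). Its normalized counts were 4486, 4666, 5080, 3217 and 3396 in WT and 1724, 1825, 1805, 2007 and 1689 in KI, libraries 1 to 5. The KI libraries lay within a narrow range below all WT libraries, and WT libraries 4 and 5 were lower than WT libraries 1 to 3. The mean was 2.30-fold lower in KI (log2 fold change −1.18, SE 0.12, adjusted p = 6.67e-06 by limma). Its paralogue Kif2b had log2 −0.26 (95% confidence interval −0.46 to −0.07, adjusted p = 0.0541), with 9094 ± 747 normalized counts in WT and 7567 ± 584 in KI (SD, n = 5). For Kif2a the value was −0.21 (−0.42 to 0.01), and for Kif24, a kinesin of the centriole, it was 0.20 (−0.06 to 0.47). Kif2a shares 1229 bases of exon with Dimt1 on the other strand, and no source says that strand was used in the counting.

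The kinesin-3 family, long-distance carriers of vesicles, held members that moved in opposite directions. Kif1a, a carrier of dense core and synaptic vesicles in neurons, lies on chromosome 1 at 93015455 to 93101875 (minus strand) and was down-regulated. Its normalized counts were 413.2, 402.4, 496.4, 228.7 and 331.3 in WT and 123.9, 128.6, 110.2, 135.6 and 157.3 in KI, libraries 1 to 5. The lowest WT library, WT4, was still above the highest KI library. The mean was 2.86-fold lower in KI (log2 fold change −1.47, SE 0.18, adjusted p = 2.54e-05 by limma). Its relative Kif1b, which was more abundant, had −0.07 (95% confidence interval −0.41 to 0.27).

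Kif13a, a carrier of endosomes, lies on chromosome 13 at 46749088 to 46929719 (minus strand) and was up-regulated. It had 114.0, 87.9, 114.7, 116.3 and 116.7 normalized counts in WT and 131.8, 137.3, 156.5, 189.4 and 244.7 in KI, libraries 1 to 5. WT2 lay apart below the other WT libraries, KI5 was the highest, and the genotypes did not overlap. The mean was 1.56-fold higher in KI (log2 fold change 0.61, SE 0.17, adjusted p = 0.0155 by limma). The fold change was close to the threshold and fell under it without WT2 (0.53), without KI4 (0.57) or without KI5 (0.47). Summed Leydig cell markers were 10124 to 17806 in WT and 14556 to 25454 in KI and summed macrophage markers 619 to 795 and 867 to 1162, and their part in the higher Kif13a level was not tested.

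Kif1c, which moves vesicles between the Golgi and the cell periphery, passed the adjusted p but not the fold threshold. Its normalized counts were 269.9, 282.1, 273.0, 254.8 and 309.6 in WT and 318.6, 332.9, 318.1, 369.3 and 550.2 in KI, libraries 1 to 5, with no overlap and KI5 far above the rest. The log2 fold change was 0.41 (SE 0.14, adjusted p = 0.0481 by limma), and it lost the adjusted p threshold in 9 of 22 alternatives, among them those without KI5 (0.27, adjusted p = 0.0803). Kif13b had −0.04 (95% confidence interval −0.29 to 0.21), Kif14, a motor of cytokinesis, 0.08 (−0.23 to 0.39), and Kif16b, a motor of early endosomes, 0.25 (−0.01 to 0.51).

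Kif16bos was the row with the largest decrease among the 48. This non-coding RNA lies on chromosome 2 at 142902965 to 142903573 (plus strand), opposite to Kif16b on the minus strand, and the exons of the pair do not overlap. It had 98.3, 100.6, 80.9, 150.4 and 104.5 normalized counts in WT and 34.5, 30.4, 43.2, 25.96 and 23.9 in KI, libraries 1 to 5. All KI libraries lay far under all WT libraries (3.38-fold lower mean, log2 fold change −1.73, SE 0.20, adjusted p = 1.83e-05 by limma), while Kif16b itself had a log2 fold change of 0.25. As a share of Kif16b within the same library, Kif16bos ranged from 0.108 to 0.200 in WT and from 0.0190 to 0.0501 in KI.

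Kif26b, a divergent member of the kinesin-11 family on chromosome 1 at 178529125 to 178932858 (plus strand), was the least abundant of the 45 motor and subunit genes, with 21 to 36 reads in WT libraries and 6 to 22 in KI libraries. Its normalized counts were 33.5, 38.2, 43.5, 21.1 and 19.8 in WT and 19.5, 18.3, 6.18, 14.4 and 9.20 in KI. The groups did not overlap, but WT5 and KI1 differed by less than 1 count. The log2 fold change was −1.19 (SE 0.33, adjusted p = 0.0164 by limma), and in libraries 4 and 5 alone it was −0.77 (adjusted p = 0.338). Kif26b shares 909 bases of exon with Gm16564 on the other strand. Its relative Kif26a had 0.23 (95% confidence interval −0.22 to 0.68).

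The elongating spermatid markers were lower in the same KI libraries as the down-regulated kinesins, with a median log2 fold change of −2.39 over the 10 markers, and the part of that list in the kinesin differences was not tested. The decreases of Kif17, Kifap3, Kif2c, Kif1a, Kif26b and Kif16bos ranged from −0.64 to −1.73 as log2 fold changes. Of the 10 markers, 9 had lower values than these, from −1.85 for Akap4, a scaffold of the sperm tail, to −3.30 for Prm2, a protamine. The other, Hils1, a spermatid linker histone, had −0.69.

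The other families had no called member. Among the kinesin-1 heavy chains, the ubiquitous Kif5b had 0.20 (95% confidence interval −0.10 to 0.51), the neuronal Kif5a −0.27 (−0.56 to 0.02) and Kif5c −0.48 (−0.85 to −0.11, adjusted p = 0.0593). The light chains Klc1, Klc2, Klc3 and Klc4 had log2 fold changes of −0.15 to 0.15, with the most abundant, Klc2, at 1985 ± 271 in WT and 2204 ± 340 in KI (SD, n = 5). Klc3, the light chain known from the midpiece of the sperm tail, had −0.15 (−0.57 to 0.27), and it shares 744 bases of exon with Ercc2 on the other strand.

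Of the kinesin-4 genes, Kif27, the most abundant and a relative of the hedgehog regulator Kif7, was at 5689 ± 724 in WT and 4910 ± 741 in KI (SD, n = 5), with a log2 fold change of −0.22 (95% confidence interval −0.47 to 0.04). Kif7 itself had 0.24, Kif21a 0.31, Kif21b −0.13 and the chromokinesin Kif4 0.22. None of these 5 passed the adjusted p threshold. Kif4 shares 832 bases of exon with Pdzd11 on the other strand. Kif4-ps is 79.5% identical to Kif4 over 3692 aligned bases, and whether reads were split between them was not tested.

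The 9 motors of the kinesin-5, -6, -8, -10 and -12 families, which except for the cilium regulator Kif19a work on the spindle, its midzone or chromosome arms, lay between −0.19 and 0.39, with 7 higher and 2 lower in KI. Kif11, the motor that pushes spindle poles apart, had 0.13 (95% confidence interval −0.10 to 0.36), and Kif20a, which carries the chromosomal passenger complex to the midzone, had 0.04 (−0.16 to 0.24). Kif23, the motor of the centralspindlin complex in cytokinesis, had the largest value of the 9 at 0.39 (0.12 to 0.66, adjusted p = 0.0392). Kif20a was the most abundant of the 9, at 2074 ± 142 in WT and 2142 ± 240 in KI (SD, n = 5), and it shares 1271 bases of exon with Cdc23 on the other strand.

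Of the kinesin-9 genes, both known from motile cilia and flagella, Kif9 was at 7502 ± 445 in WT and 6358 ± 477 in KI (SD, n = 5) with no overlap between genotypes. Its log2 fold change was −0.24 (95% confidence interval −0.43 to −0.05), with an adjusted p of 0.0624 that missed the threshold. Kif6 had 0.02 (−0.31 to 0.35). The 4 kinesin-14 genes, minus-end directed motors, ranged from −0.06 (Kifc5b) to 0.27 (Kifc1). Kifc5b and Kifc1 are 95.9% identical over 2375 aligned bases, so their counts are uncertain singly. Kifc3, the most abundant of the 4, had 817 ± 92.4 in WT and 915 ± 169 in KI (SD, n = 5). Outside the motor families, Kif1bp had −0.28 (−0.51 to −0.05, adjusted p = 0.0806) and Kif4-ps had 0.00 (−0.20 to 0.20).

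Levels were compared between genes as normalized counts per kilobase of the longest annotated transcript that has a RefSeq match. On this scale Kif2b, a kinesin-13, was the most abundant kinesin in WT at 4052 ± 333 (SD, n = 5), followed by Kif9 at 2538 ± 150 and Kif17 at 2149 ± 199, and the ranges of 1 SD of these 3 did not overlap. The next were Kif2c at 1467 ± 288, Kif27 at 1275 ± 162, Kifap3 at 1213 ± 147 and Kif3b at 1017 ± 84.9, and neighbours in this order had overlapping ranges of 1 SD. At the other end were Kif3c at 8.85 and Kif26b at 2.27. In KI, Kif17 was at 1116 ± 195, close to Kif27 at 1100 ± 166 and Kif3b at 1010 ± 167, and Kif2c was at 637 ± 43.5.

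**Figure D3:**
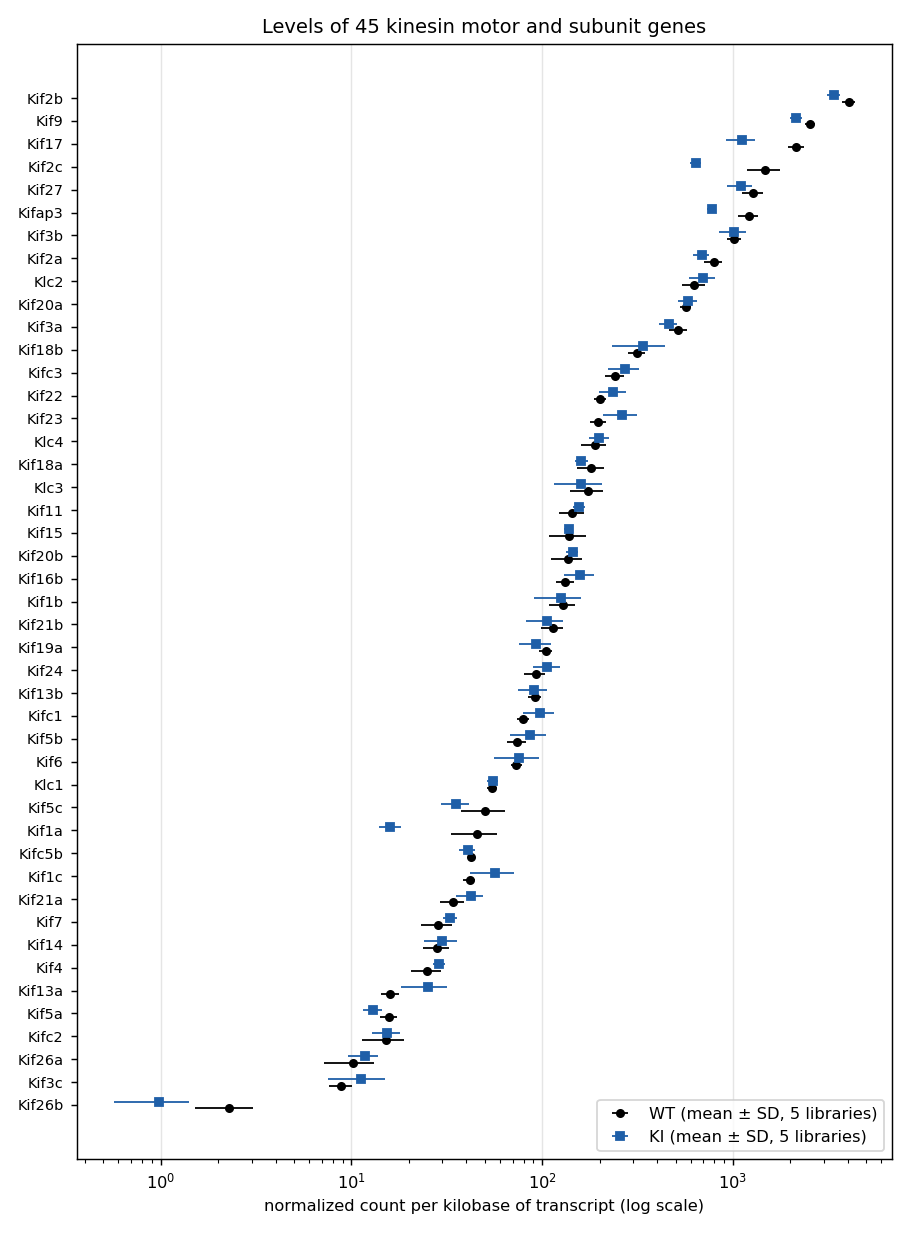
Mean normalized count per kilobase of transcript, on a log scale, of the 45 kinesin motor and subunit genes in WT (black circles) and KI (blue squares), with bars of 1 SD over 5 libraries and genes ordered by the WT level. The levels run from 4052 for Kif2b to 2.27 for Kif26b in WT, and Kif17, Kif2c, Kifap3, Kif1a and Kif26b show KI squares clearly left of the WT circles.

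Summed over the 45 genes, the normalized counts were 62170 to 74023 per WT library and 52352 to 65412 per KI library. As a share of that sum, Kif17 held 10.8% in WT and 6.64% in KI, Kif2c 6.05% and 3.16%, and Kifap3 7.07% and 5.42%, as means over 5 libraries. Kif2b held 13.2% in both genotypes. The share of Kif3b was 8.36% in WT and 9.82% in KI, and that of Kif9 was 10.9% and 11.05%. A share rises for any gene that did not fall with the down-regulated ones, as the sum was smaller.

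Ratios within a library do not depend on the scaling between libraries, and they were taken between related genes as a description. Kifap3 over Kif3a ranged from 2.71 to 3.44 in WT and from 1.78 to 2.32 in KI. Kif17 over Kif3b ranged from 1.15 to 1.55 in WT and from 0.634 to 0.695 in KI. In both pairs of kinesin-2 genes the genotypes did not overlap, and the second ratio was nearly the same in all KI libraries. Kif2c over Kif2a was 0.814 to 1.32 in WT and 0.442 to 0.548 in KI, and Kif2c over Kif2b was 0.359 to 0.565 and 0.227 to 0.249. For both kinesin-13 ratios every KI library lay below every WT library. Kif1a over Kif1b was 0.189 to 0.449 in WT and 0.0870 to 0.132 in KI, and Kif13a over Kif13b was 0.173 to 0.250 and 0.297 to 0.396. Kif5c over Kif5b was 0.521 to 0.936 in WT and 0.375 to 0.820 in KI, and in this pair the genotypes overlapped.

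**Figure D4:**
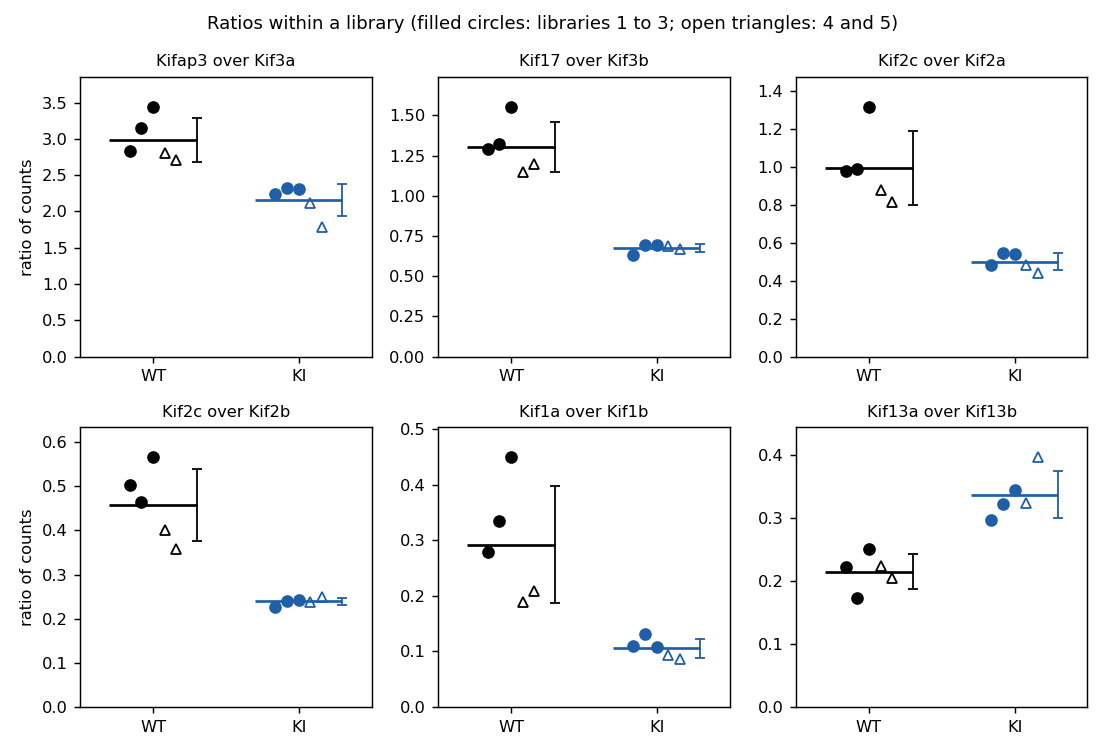
Ratio of normalized counts within each library for 6 pairs of related kinesin genes, with filled circles for libraries 1 to 3, open triangles for libraries 4 and 5, a line at the mean and bars of 1 SD (n = 5). The KI points lie below the WT points in 5 pairs and above them for Kif13a over Kif13b, with no overlap in any of the 6.

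The estimated effects of genotype on kinesin rows were compared between libraries 1 to 3 and libraries 4 and 5. Rows measured in the same libraries are not independent, so the counts of rows are a description and not a test of the group. In libraries 1 to 3, 29 of the 48 rows were lower in KI, with a median log2 fold change of −0.10, and in libraries 4 and 5, 16 were lower, with a median of 0.16. Over all genes tested the medians were 0.02 in both sets. The difference of the effects, tested as an interaction in limma over all genes, had an unadjusted p under 0.05 for 20 of the 48 rows (41.7%), beside 16.1% of all genes. It was above 0 in 37 rows (77.1%), beside 50.6% of all genes. After adjustment 1 row was called, Kif5c (2.08%), beside 0.247% of all genes, and this count was 0 without WT1, WT2, WT4, KI1, KI2 or KI3, 5 without KI4, and 6 with DESeq2, which gave Kif5c no adjusted p. No label pairs the libraries, and the check described with the processing could not show that equal numbers mark pairs. With the replicate number as a block 10 rows were called (Kif16b, Kif17, Kif18b, Kif1a, Kif1b, Kif21b, Kif23, Kif27, Kif2c and Kif5c), beside 7.79% of all genes.

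Kif5c, a kinesin-1 heavy chain, had 445.6, 386.2, 394.9, 250.8 and 250.4 normalized counts in WT and 238.9, 205.1, 203.8, 301.9 and 265.9 in KI, libraries 1 to 5. In libraries 1 to 3 every KI value lay below every WT value (log2 fold change −0.92), and in libraries 4 and 5 every KI value lay above (0.18). The difference of the effects was 1.096 (SE 0.19, adjusted p = 0.0261 by limma over all genes), and leaving out single libraries moved its adjusted p above the threshold for WT1, WT2, WT4, KI1, KI2 or KI3, up to 0.144. Kif27 was at −0.47 in libraries 1 to 3 and 0.17 in libraries 4 and 5, and Kif23 at 0.11 and 0.80, each with an interaction adjusted p of 0.0747. The called motors kept their direction in both sets. Kif17 was at −1.17 and −0.63, Kif2c at −1.41 and −0.84, Kif1a at −1.84 and −0.91, Kifap3 at −0.77 and −0.44, and Kif13a at 0.43 and 0.88.

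**Figure D5:**
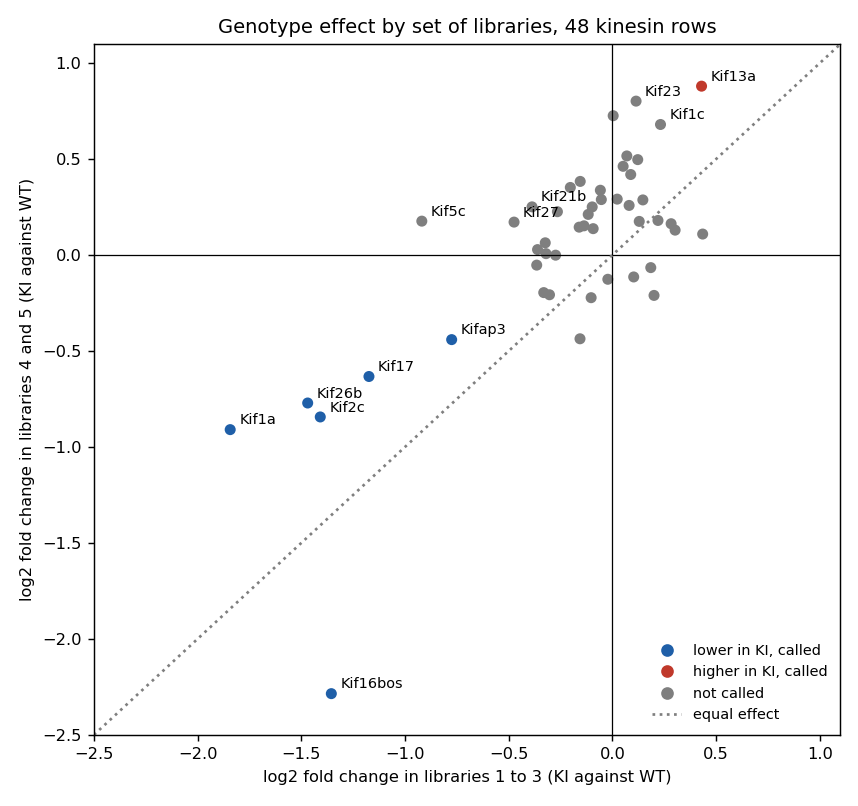
Log2 fold change, KI against WT, of each of the 48 kinesin rows in libraries 1 to 3 (horizontal axis) and in libraries 4 and 5 (vertical axis), with a dotted line where both effects would be equal. Of the rows, 37 lie above the line, Kif5c lies farthest above it with −0.92 and 0.18, and Kif16bos lies below it.

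For the cell type markers the medians of log2 fold changes in libraries 1 to 3 and in libraries 4 and 5 were −2.39 and −2.42 for elongating spermatids, −0.23 and −0.75 for round spermatids, and 0.47 and −0.20 for Sertoli cells. No marker of any list passed the interaction test after adjustment, and 5 of the 6 round spermatid and 3 of the 6 Sertoli cell markers had an unadjusted p under 0.05. The part of read quality or of these markers in the kinesin differences between sets was not tested.

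Of the 20 partners of the spindle motors, such as the kinase Plk1, the centralspindlin subunit Racgap1 and the midzone bundler Prc1, none was down-regulated and 1 was up-regulated, Hmmr, a spindle pole protein, at 0.66 (SE 0.11, adjusted p = 4.30e-04 by limma). These are 0% and 5.0% of the list, beside 8.22% and 6.13% of all genes, and the median log2 fold change was 0.08, beside 0.03 for all genes. In libraries 1 to 3, 14 of the 20 were lower in KI and in libraries 4 and 5 only 2 were, with medians of −0.09 and 0.30, and the difference between sets was above 0 for all 20. For the 9 kinesins of the families kinesin-5, -6, -8, -10 and -12 the medians were −0.10 and 0.29, and the difference was above 0 for all 9.

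Of 30 genes of cytoplasmic dynein and dynactin, the minus-end motor that works against kinesins, 2 were down-regulated (6.67%, beside 8.22% of all genes) and none up-regulated (beside 6.13%). The median was 0.00, so by calls and median the list stood near the background. At the adjusted p alone 7 of the 30 passed (23.3%, beside 22.9% of all genes). All 7 were lower in KI, beside 2044 lower and 1485 higher among all genes. The called genes were the light chain Dynll2 at −0.81 (SE 0.09, adjusted p = 1.44e-05 by limma) and Hook1, an adaptor of the spermatid manchette, at −0.89 (SE 0.11, adjusted p = 4.33e-05). Hook1 was at 6139 ± 1031 normalized counts in WT and 3274 ± 192 in KI (SD, n = 5), beside the −0.96 of Kif17.

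A list of 27 genes held kinesin cargo adaptors and cargo, and also Crem, which is neither. Of these, 26 were tested, 2 were down-regulated (7.69%, beside 8.22% of all genes) and 1 was up-regulated (3.85%, beside 6.13%). The median was 0.04, and by calls and median this list too stood near the background. Grip1, which steers KIF5 to dendrites in neurons, was at 2558 ± 358 in WT and 1267 ± 59.3 in KI (SD, n = 5), with a log2 fold change of −1.002 (SE 0.10, adjusted p = 4.70e-06 by limma). Crem, the transcription factor whose coactivator KIF17 carries, was at −0.60 (SE 0.12, adjusted p = 0.00239). Ppfia3, a liprin that binds KIF1A, was up-regulated at 1.38 (SE 0.30, adjusted p = 0.00394) from a low level of 8.97 ± 4.56 in WT to 23.0 ± 1.58 in KI (SD, n = 5). Fhl5, which encodes ACT, had −0.50 with an adjusted p of 0.156.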

How the data were processed

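Poly(A) RNA of germ cells from 10 mice was sequenced as paired-end reads, and groups and library numbers were taken from the labels. The deposited values are a normalized signal per gene: the authors used STAR for alignment (build mm10) and Partek's E/M model for counts on RefSeq genes, and scaled the libraries by DESeq2 size factors. Within each library 100% of the values under 5000 reads were whole multiples (within 0.02 read) of the value of 1 read, and the reads were recovered from them. Columns not assigned to a library numbered 0.

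The kinesin rows, the families and the other gene lists were chosen with earlier results of these data known. limma (version 3.58.1, R 4.3.3) was run on log2(value + 1) with a variance trend, for the 15389 genes kept by filterByExpr (edgeR version 4.0.16). Named with full values are members past both thresholds and members past the adjusted p with no overlap between genotypes, with at least 1 abundant member of each family, Ddx25, and called genes of the pathway lists. Other genes named, such as Kif5c, Kif23 and Fhl5, were chosen after their values were seen. Alternatives were edgeR's quasi-likelihood test with TMM factors and DESeq2 (version 1.42.0) on recovered reads, scaling to library totals or the upper quartile, pseudocounts of 0.1 and 10, no filter and a filter of 50 reads in 5 libraries, other fold thresholds, a replicate block, a read quality term, each set of libraries alone, and leaving out each library. Single genes were judged in the alternatives by adjusted p alone. Those of the interaction were chosen after seeing the data. The scripts were tested on simulated data.

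Deviations from the genotype means of same-numbered libraries had correlations of 0.306, 0.105, 0.280, 0.216 and 0.462. All were over the cutoff of 0.1 set for pairing. Other libraries of the same read quality had a mean correlation of 0.134, over that cutoff and not exceeded by the second pair. The check therefore could not show that the numbers pair the samples. Replicates differed beyond sampling noise (chi-square over degrees of freedom, 2.68 to 46.7), and no library was a duplicate. Transcript lengths and exon overlaps came from GENCODE on the same build, and promoters from RefSeq. The p-values set each difference against the spread between libraries, which were 5 and 5 in the main test and fewer in subsets.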

Additional observations from a re-analysis of the deposited data

Results flagged for a closer look

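Of 36 groups of 5 libraries examined, for the 18 genes named with values, 2 held a library that stood apart by Dixon's test, where chance flags about 1 in 20 groups. For Kif13a, the up-regulated carrier of endosomes, WT2 was at 87.9 normalized counts while the other WT libraries lay between 114.0 and 116.7, and the gap was 0.907 of the range. For Kif1c, KI5 was at 550.2 while the other KI libraries lay between 318.1 and 369.3, and the gap was 0.780 of the range. Kif5c was flagged because its genotype effect in libraries 4 and 5 minus that in libraries 1 to 3 was 1.096 on the log2 scale by the interaction test of limma.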

How the results depend on the processing

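The count of 6 down-regulated kinesin rows was 4 to 7 over 24 alternatives and 6 to 7 when single libraries were left out. It was 7, with Kif5c, in libraries 1 to 3 alone, without WT4 and without WT5. It was 4 in libraries 4 and 5 alone, where Kif26b and Kifap3 were not called, and 4 at a fold change of at least 2. The count of 1 up-regulated row was 3 after scaling to library totals, 0 with a pseudocount of 10, 0 in libraries 1 to 3 alone, 2 in libraries 4 and 5 alone, 3 with no fold change threshold, 0 at a fold change of at least 2, and 0 to 1 when single libraries were left out, being 0 without WT2, KI4 or KI5. Scaling to library totals moved the median of all genes to 0.25 and that of the kinesins to 0.24, and the calls in all genes to 789 lower and 2145 higher, from 1265 and 944. The cause of the other changes was not tested. The number of rows with a called interaction was 10 with the replicate block, 6 with DESeq2 and 0 to 5 when single libraries were left out. The difference for Kif5c was 1.00 to 1.19 in the latter, with adjusted p of 0.00227 to 0.144 over its alternatives. DESeq2 gave an adjusted p for 26 of the 48 rows and not for Kif5c, and its 6 calls (Kif17, Kif18b, Kif21b, Kif23, Kif27 and Kif2c) were 23.1% of those rows, beside 9.0% of all genes given one. The replicate block changed no other call of a kinesin row, or of a gene in the pathway and marker lists beyond those of Hsd3b1 and Lhcgr, and it moved the calls in all genes to 1343 lower and 1067 higher. The log2 fold changes of the called rows and of Kif1c, and the difference for Kif5c, kept their sign in the alternatives that gave them an adjusted p. Other rows were not followed in this way. Some, such as Kif5c and Kif27, changed the sign of their fold change between libraries 1 to 3 and libraries 4 and 5. Intervals and p-values of the main test rest on 5 libraries a group, and those of subsets on fewer. Kif26b rests on 6 to 36 reads.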
